A study of Homo sapiens with 2 samples.

Results

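The natriuretic peptide system was examined as 8 genes: the hormone genes NPPB, NPPA and NPPC, the receptor genes NPR1, NPR2 and NPR3, and the processing protease genes CORIN and FURIN. The set was chosen by measured values, since NPPB had the highest difference of all genes between the arrays, and the other genes were added as its family and pathway. Of the 8 genes, 7 had probe sets that named only them, 12 probe sets in all, among 19775 genes measured. Expression of NPR2 was not analysed here.

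The samples were 2 cultures of Huh7, a line of human liver cancer cells (hepatocellular carcinoma). In the knockdown culture a lentivirus stably delivered an shRNA (short hairpin RNA) that targets CD24, the gene of a small glycoprotein of the cell surface. The other culture received a non-target control (NTC) hairpin by lentivirus. Each culture gave total RNA for 1 array, so every difference rests on 1 array per group, 1 hairpin was used against CD24, and no p-value or spread between cultures exists. The deposited log2 values were centred on the 2 arrays of each probe set, which leaves the difference between the arrays and removes the level of expression, so whether a gene was expressed in Huh7 cells, and the identity of the cells by marker levels, could not be read. CD24 itself was lower with CD24 shRNA on all 6 probe sets that name it, with log2 differences between -1.97 and -0.95. In RNA from a whole culture, a change in the RNA of each cell and a change in the share of cells that carry it cannot be told apart.

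The natriuretic peptides are hormones made as longer precursors. ANP, from NPPA, and BNP, from NPPB, come mainly from heart muscle and lower blood volume and pressure, while CNP, from NPPC, acts locally, in bone growth and in blood vessels. CORIN cuts the ANP precursor and FURIN can cut those of BNP and CNP. NPR1 answers ANP and BNP, and NPR2 answers CNP, each by making cyclic GMP, whereas NPR3 binds all of these peptides and clears them.

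NPPB had the highest value of the family, which is how the set was chosen. Its 1 probe set had a centred log2 value of 1.62 in the CD24 shRNA array and -1.62 in the control array. The log2 difference, CD24 shRNA minus control, was 3.24, which is 9.48-fold higher with CD24 shRNA. For scale, the SD between probe sets of the same gene, pooled over 10523 genes with 2 or more probe sets, was 0.27. That SD describes how probe sets of a gene scatter on these arrays, and leaves out the variation between cultures.

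NPPB ranked highest of 19775 genes by the mean over probe sets, which is the value that chose it and is given as a description. CNN1, encoding the actin-binding protein calponin 1, came next with a log2 difference of 3.08, 0.16 lower. The rank depends on how probe sets are combined, because NPPB has 1 and some other genes have several that disagree. NPPB ranked 3 with the median over probe sets and 4 with the probe set of largest absolute difference, TAGLN being highest both times at 3.93 and 4.02. It ranked 2 without probe sets placed at the low end of the array's values, below COL3A1 at 3.78. NPPB stayed highest, of 17098 genes, without probe sets whose names end in _s_at or _x_at, endings that can mark probes matching several transcripts. Of single probe sets, 6 lay above that of NPPB, belonging to TAGLN, COL3A1 and ANXA1. With 1 probe set, the log2 difference of NPPB itself could move only with the scaling of the arrays, and was 3.35 with the hybridisation controls set equal.

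**Figure D1:**
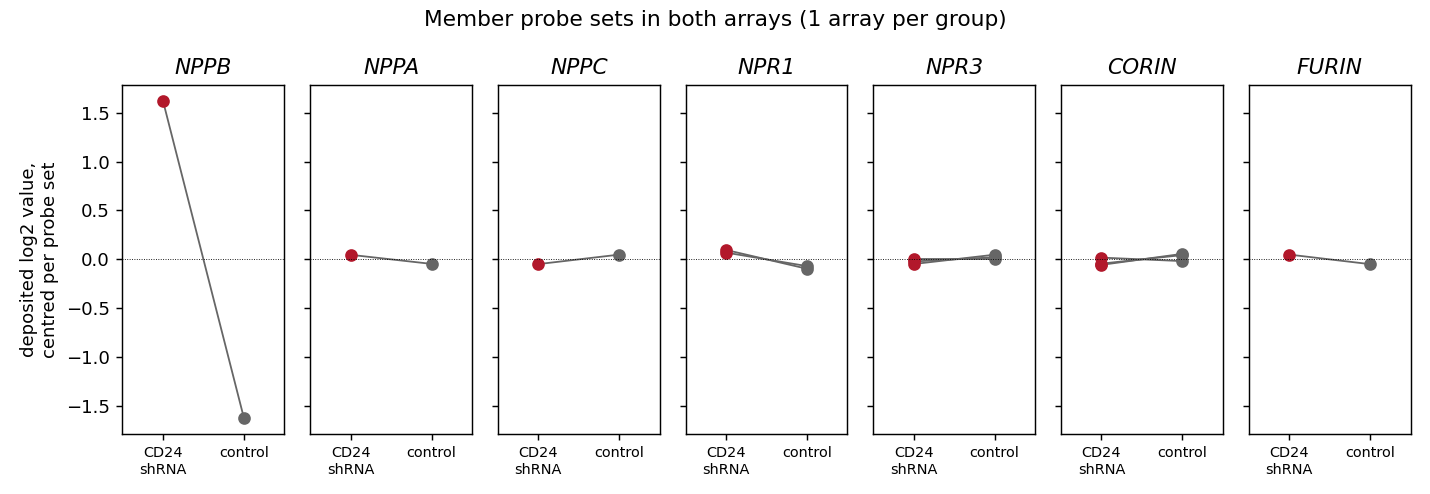
Centred log2 values of every probe set of the 7 measured genes in the CD24 shRNA array (left, red) and in the control array (right, grey), with a line joining the 2 values of a probe set. NPPB has 1.62 with CD24 shRNA and -1.62 in the control, while every other probe set lies within 0.10 of 0 in both arrays.

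The other hormone genes lay near 0. NPPA had a centred log2 value of 0.05 in the CD24 shRNA array and -0.05 in the control array, a log2 difference of 0.09. NPPC had -0.05 in the CD24 shRNA array and 0.05 in the control array, a log2 difference of -0.10. Both differences were inside the pooled SD. The log2 difference of NPPB exceeded that of NPPA by 3.15. Each hormone gene had 1 probe set, so no second probe set checks any of these values, and the name of the NPPA probe set ends in _s_at, which can mark probes that match several transcripts.

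Both measured receptor genes were also close to 0. NPR1, the guanylyl cyclase receptor of ANP and BNP, had centred values of 0.10 and 0.07 on its 2 probe sets with CD24 shRNA and -0.10 and -0.07 in the control. Its mean log2 difference was 0.17 ± 0.04 (SD, 2 probe sets), the highest of the family after NPPB. NPR3, the clearance receptor, had centred values of -0.05, -0.02 and 0 on its 3 probe sets with CD24 shRNA, against 0.05, 0.02 and 0 in the control. Its mean log2 difference was -0.05 ± 0.05 (SD, 3 probe sets). The digits of the file placed the dimmer value of 1 NPR1 probe set and of 2 NPR3 probe sets below 4 on the log2 scale, at the low end of the values such arrays give. The remaining NPR3 probe set was tied between the arrays.

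The protease genes did not differ either beyond the pooled SD. CORIN, the membrane serine protease that activates ANP, had centred values of -0.06, -0.04 and 0.02 on its 3 probe sets with CD24 shRNA, against 0.06, 0.04 and -0.02 in the control. Its probe sets lay on both sides of 0, with a mean log2 difference of -0.05 ± 0.08 (SD, 3 probe sets), and 2 of them were placed below 4. FURIN, a proprotein convertase that most cells use, had 0.05 with CD24 shRNA and -0.05 in the control on its 1 probe set, a log2 difference of 0.10.

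Counted together, 1 of the 7 genes, NPPB, was at least 2-fold higher with CD24 shRNA, where 0.632% of all genes were, and 0 were at least 2-fold lower, where 0.485% of all genes were. As NPPB was chosen on this contrast, nothing is read from that count. The other 6 genes lay between -0.10 and 0.17, 3 above and 3 below 0, and their 11 probe sets lay between -0.11 and 0.19. All 6 were inside the pooled SD, as were 76.0% of all genes, so values this small are usual on these arrays. The median absolute log2 difference over all genes was 0.14. With the hybridisation controls set equal between the arrays, a shift of 0.11 upward for every difference, NPPC, NPR3 and CORIN moved to the positive side at 0.01, 0.06 and 0.05, so their direction is not settled.

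**Figure D2:**
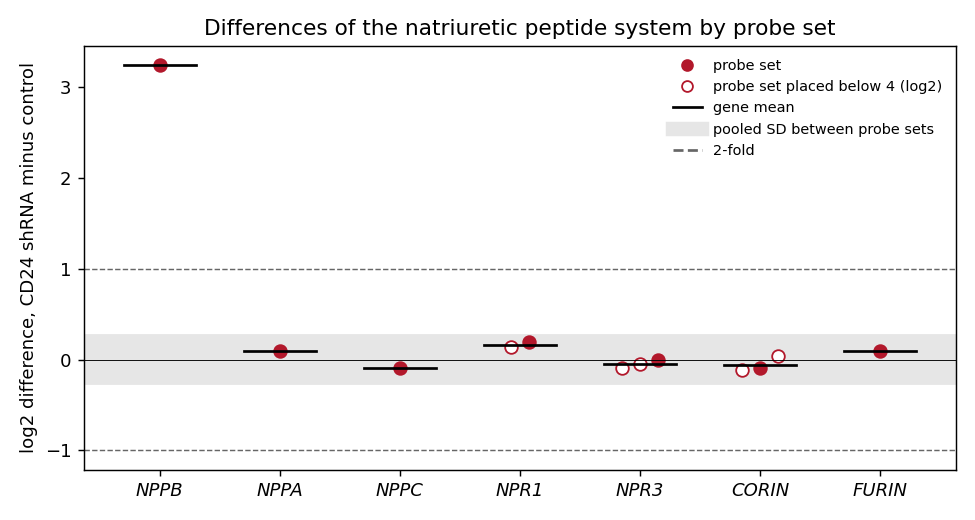
Log2 difference (CD24 shRNA minus control) of each probe set of the 7 measured genes, with the gene mean as a bar, open circles for probe sets placed below 4, the pooled SD between probe sets in grey and 2-fold as dashed lines. NPPB lies at 3.24 and the other genes between -0.10 and 0.17, inside the grey band.

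NPPA and NPPB are neighbours on chromosome 1, with 0 genes between them in the RefSeq gene table of GRCh38.p14. The measured genes around them lay near 0. On the NPPA side, CLCN6, which encodes a chloride transport protein of endosomes, was tied at 0, C1orf167 lay at 0.13 and AGTRAP, encoding a protein that binds the angiotensin II type 1 receptor, at -0.34 ± 0.37 (SD, 3 probe sets). On the NPPB side, KIAA2013 lay at -0.28 ± 0.19 (SD, 2 probe sets), PLOD1, a collagen lysyl hydroxylase, at 0.17, and MFN2, a protein of mitochondrial fusion, at 0.27 ± 0.22 (SD, 3 probe sets). Of the 10 nearest measured genes on each side, 20 in all, 0 reached 2-fold in either direction (0.632% of all genes higher, 0.485% lower). Their values ran from -0.35 to 0.27, and the median was -0.01. NPPA-AS1, the antisense gene of NPPA, was not analysed here.

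**Figure D3:**
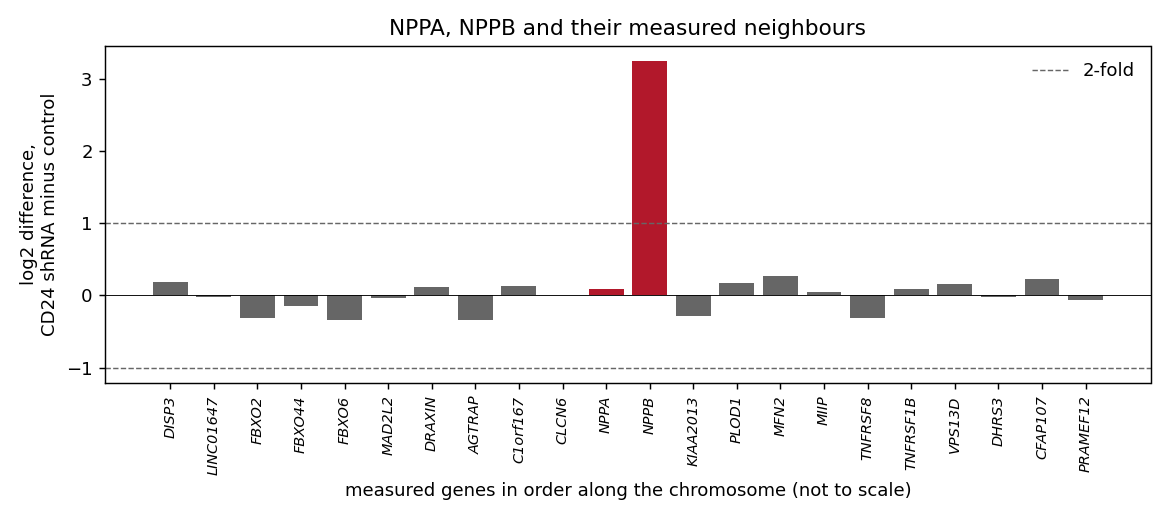
Log2 difference (CD24 shRNA minus control) of NPPA and NPPB (red) and of the 10 nearest measured genes on each side (grey), in chromosomal order and not to scale, with 2-fold as dashed lines. NPPB at 3.24 is the only bar beyond 2-fold, and the neighbours lie between -0.35 and 0.27.

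The 5 genes with values nearest to that of NPPB, by the gap in log2 difference over the 2 arrays, were CNN1 at 3.08, KCNJ8 at 2.95, MYL7 at 2.88, TAGLN at 2.67 and PRSS35 at 2.66. KCNJ8 encodes a subunit of ATP-sensitive potassium channels, MYL7 an atrial myosin light chain, TAGLN an actin-binding protein of smooth muscle and PRSS35 a serine protease family member. The 3 probe sets of TAGLN ran from 0.05 to 4.02, and its log2 difference was 0.05 without probe sets whose names end in _s_at or _x_at. With 2 arrays, likeness means only a similar size of difference.

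Promoter sequence is shown for NPPA, the neighbour that lay near 0, and for MYL7, a heart gene with a difference close to that of NPPB. No promoter window of NPPB was used. Both are the 250 bases before the transcription start from RefSeq (GRCh38.p14), 5′ to 3′ on the gene's strand, NPPA at chr1:11847784-11848033 and MYL7 at chr7:44141333-44141582, both on the minus strand. Capitals mark matches, on either strand, to sequences bound by factors known to act in heart or muscle: CATTCC (the M-CAT element of TEAD factors), GATAA (GATA factors), TGANTCA (AP-1) and the CArG box (serum response factor). No matches overlapped in these windows.
NPPA: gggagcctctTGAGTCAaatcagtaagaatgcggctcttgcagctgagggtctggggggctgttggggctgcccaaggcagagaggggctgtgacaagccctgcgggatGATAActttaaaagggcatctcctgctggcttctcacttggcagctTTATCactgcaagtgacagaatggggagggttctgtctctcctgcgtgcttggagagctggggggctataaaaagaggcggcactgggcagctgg
MYL7: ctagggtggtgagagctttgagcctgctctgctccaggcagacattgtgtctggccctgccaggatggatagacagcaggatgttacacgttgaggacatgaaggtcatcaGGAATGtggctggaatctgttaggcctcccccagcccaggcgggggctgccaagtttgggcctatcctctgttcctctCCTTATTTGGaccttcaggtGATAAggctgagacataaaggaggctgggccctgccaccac

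The NPPA window held 2 GATAA matches, 91 and 137 bases before the start, and 1 AP-1 match 234 bases before it. The MYL7 window held 1 GATAA match at 37 bases, 1 CArG box at 52 bases and 1 M-CAT match at 134 bases before the start. MYL7 is shown because its window held matches. The windows of CNN1, KCNJ8 and PRSS35, also nearest to NPPB in value, held 0 matches to any of the 4 motifs, and no window of TAGLN was used. Among 35116 windows of the same length, 11.9% held CATTCC, 20.4% GATAA, 6.57% TGANTCA and 1.16% a CArG box. The 7 family genes with a window, which include NPR2 and leave out NPPB, had 11 windows between them, NPR3 and FURIN having several each. Of these 11, 1 held CATTCC, 3 GATAA, 1 TGANTCA and 0 a CArG box. A match says only that the letters are present.

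Transcription factors known to act on NPPA or NPPB in heart lay between -0.31 and 0.86. Of 30 listed, all were measured and 0 reached 2-fold in either direction (0.632% of all genes higher, 0.485% lower). Of the 30, 19 lay above and 11 below 0, and the median was 0.06, against 0.00 over all genes. The highest were MEF2C, a muscle transcription factor, at 0.86 ± 0.41 (SD, 3 probe sets), TEAD4 at 0.72 ± 0.22 (SD, 2 probe sets), the heart factor HAND1 at 0.56 on 1 probe set placed below 4, and TEAD1 at 0.53 ± 0.28 (SD, 3 probe sets). TEAD1 and TEAD4 bind the M-CAT element. MEF2C reached 2-fold under 3 alternatives, at 1.08 with the median over its probe sets and at 1.11 both on its probe set of largest absolute difference and without probe sets whose names end in _s_at or _x_at. GATA4, a factor of both heart and liver, lay at 0.06 ± 0.12 (SD, 5 probe sets), SRF, which binds the CArG box, at 0.09 ± 0.12 (SD, 2 probe sets), and the heart factor NKX2-5 at -0.20. HAND2, the relative of HAND1, lay at -0.28 on 1 probe set placed below 4.

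Heart and striated muscle genes differed widely among themselves. Of 28 measured, 4 were at least 2-fold higher with CD24 shRNA, where 0.632% of all genes were, and 0 lower, where 0.485% were. Of the 28, 21 lay above 0, as did 9770 of all 19775 genes, and the median was 0.09. Beside MYL7, these were NEXN, the F-actin-binding protein nexilin, at 2.50 ± 0.50 (SD, 2 probe sets), ANKRD1, a stress-responsive muscle protein, at 2.40, and ACTA1, skeletal muscle actin, at 2.40. The 4 genes were between 5.28-fold and 7.36-fold higher. The other 24 lay between -0.26 and 0.55, 17 above and 7 below 0. Of these 24, 18 were inside the pooled SD, as were 76.0% of all genes. At the upper end of the range of the 24 were XIRP1, an actin-binding muscle protein, at 0.55 and ACTC1, cardiac actin, at 0.45. At its lower end were the filament protein gene DES at -0.26 ± 0.30 (SD, 2 probe sets, 1 placed below 4) and the cardiac myosin gene MYH7 at -0.23. The list was written with earlier results of these arrays known, so its count is no independent evidence of a direction.

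Cyclic GMP is the second messenger of NPR1 and NPR2. Of 25 measured genes for its synthesis, effectors and breakdown, 0 reached 2-fold in either direction (0.632% of all genes higher, 0.485% lower). Of the 25, 14 lay above and 11 below 0, and the median was 0.07. GUCY1A2, a subunit of soluble guanylyl cyclase, lay at 0.68 ± 0.38 (SD, 6 probe sets, 4 placed below 4), PDE6A, a retinal phosphodiesterase, at -0.65 on 1 probe set placed below 4, GUCY2C, the guanylin receptor, at 0.54, and PDE3A, a phosphodiesterase inhibited by cyclic GMP, at 0.51 ± 0.38 (SD, 4 probe sets). On the probe set of largest absolute difference per gene, 2 genes reached 2-fold: GUCY1A2 at 1.21, and PDE5A, the phosphodiesterase that breaks down cyclic GMP in smooth muscle, at 1.17, against 0.24 on average. The guanylins, peptides of the gut that act through GUCY2C, lay at 0.32 for GUCA2A and 0 for GUCA2B.

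Genes of peptide breakdown and of NPR3 signalling lay mostly above 0. Of 12 measured, 9 lay above and 3 below 0, where 9770 of all 19775 genes lay above 0, and the median was 0.25. Of the 12, 0 reached 2-fold (0.632% of all genes higher, 0.485% lower). MEP1A, the alpha subunit of the metalloprotease meprin, lay at 0.87, DPP4, a dipeptidyl peptidase that can trim BNP, at 0.61 ± 0.14 (SD, 3 probe sets), IDE, the insulin-degrading enzyme that also cuts natriuretic peptides, at 0.39 ± 0.13 (SD, 3 probe sets), and MMEL1, a neprilysin relative, at 0.32. All 3 probe sets of DPP4 and of IDE lay above 0, from 0.50 to 0.76 and from 0.31 to 0.54. Below 0 lay MME, the neprilysin gene, at -0.075 ± 0.013 (SD, 2 probe sets, 1 placed below 4), MEP1B and ECE2. MEP1B lay at -0.11 on 1 probe set placed below 4, and ECE2 at -0.01 ± 0.24 (SD, 3 probe sets). The NPR3 effector genes GNAI2 and GNAI3 lay at 0.14 and at 0.27 ± 0.19 (SD, 3 probe sets). The effector gene GNAI1 lay at 0.02 ± 0.42 (SD), its 2 probe sets being on opposite sides of 0 at -0.28 and 0.31.

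The relatives of the processing proteases gave values around 0 with 1 gene apart in each family. Of 6 measured proprotein convertase genes, the relatives of FURIN with the inhibitor PCSK1N, 0 reached 2-fold (0.632% of all genes higher, 0.485% lower). Of the 6, 3 lay above and 3 below 0, and the median was -0.01. PCSK5, a convertase that shares much of FURIN's specificity, was highest at 0.88 ± 0.20 (SD, 3 probe sets) and reached 2-fold, at 1.01, on its probe set of largest absolute difference. It was followed by PCSK1N at 0.25, PCSK4 at -0.16 and MBTPS1, the site-1 protease, at -0.12 ± 0.04 (SD, 2 probe sets). Of 13 measured type II transmembrane serine proteases, the relatives of CORIN, 0 reached 2-fold (0.632% of all genes higher, 0.485% lower). Of the 13, 6 lay above and 7 below 0, and the median was -0.02. HPN, the liver protease hepsin, was lowest at -0.68, then ST14, matriptase, at -0.19 ± 0.16 (SD, 3 probe sets), TMPRSS6, which restrains hepcidin production, at -0.16 ± 0.24 (SD, 3 probe sets), and TMPRSS4 at -0.15.

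Other vasoactive peptides and receptors included further large differences. With CD24 shRNA, 3 of 30 measured genes were higher by 2-fold or more (0.632% of all genes) and 1 was lower by as much (0.485% of all genes), 15 lay above and 14 below 0, and the median was 0.01. EDN1, the vasoconstrictor endothelin 1, which induces NPPB in heart muscle cells, was 3.57-fold higher on probe sets that disagreed in size (1.83 ± 1.24, SD, 3 probe sets, from 0.43 to 2.78). CALCB, a calcitonin gene-related peptide, was 2.77-fold higher and RAMP1, a subunit of the receptor for that peptide, 2.70-fold higher, each on 1 probe set. CALCA, the other gene of such a peptide, lay at -0.08 ± 0.16 (SD, 4 probe sets). CALCRL, the other subunit of that receptor, lay at -0.03 ± 0.20 (SD, 3 probe sets, 3 placed below 4). AGTR1, the angiotensin II type 1 receptor, was 2.07-fold lower (-1.05 ± 0.26, SD, 2 probe sets), and fell short of 2-fold, at -0.94, with the hybridisation controls set equal. It has no value without probe sets whose names end in _s_at or _x_at, where 27 genes were measured and 0 were 2-fold lower. AGT, the liver-made precursor of angiotensin, lay at -0.63. ADM, the vasodilator adrenomedullin, lay at 0.96 and reached 2-fold, at 1.07, with the hybridisation controls set equal.

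**Figure D4:**
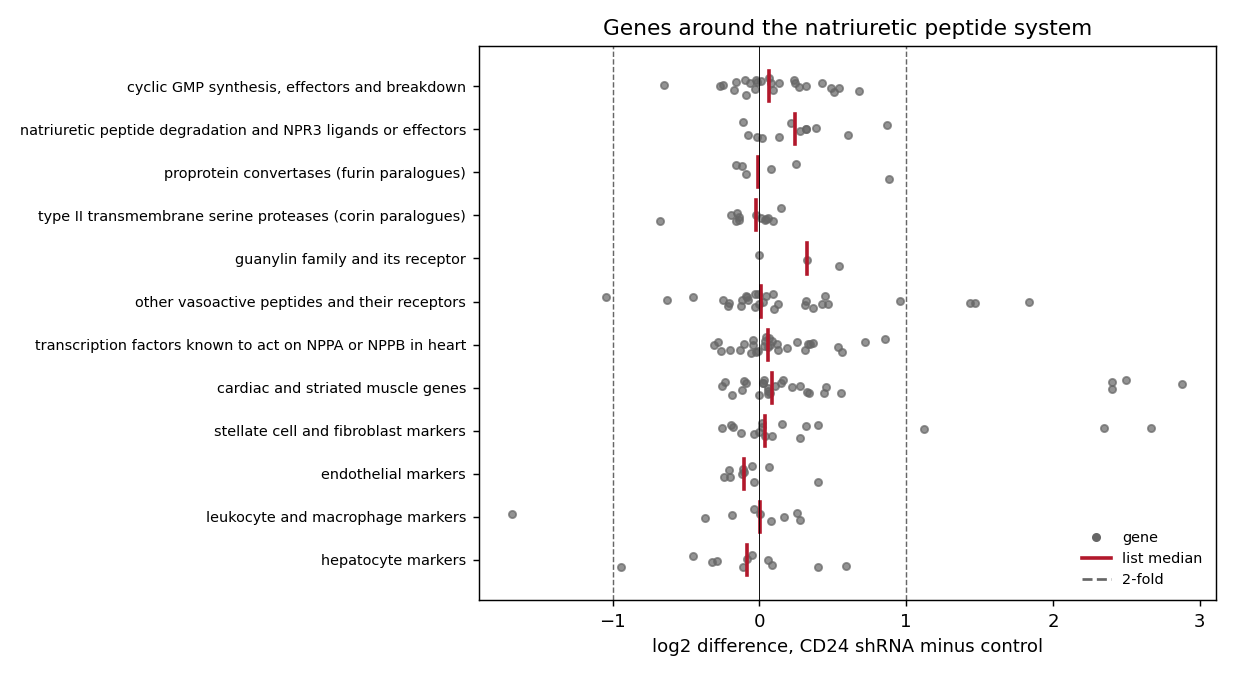
Log2 difference (CD24 shRNA minus control, horizontal axis) of every measured gene of 12 lists around the natriuretic peptide system and of cell type markers, 1 point per gene with the list median as a red bar and 2-fold as dashed lines. List medians lie between -0.10 and 0.32, and the points beyond 2-fold upward are in the vasoactive peptide, heart and muscle, and stellate cell and fibroblast lists.

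Markers of other cell types are given beside these values because NPPB is a gene of heart muscle. Of 17 stellate cell and fibroblast markers, 3 were at least 2-fold higher (0.632% of all genes) and 0 lower (0.485% of all genes) with CD24 shRNA, with a median of 0.04: TAGLN, COL3A1 at 2.35 ± 1.77 (SD, 5 probe sets, 4 placed below 4) and LUM at 1.12 ± 1.41 (SD, 2 probe sets, both placed below 4). Without probe sets whose names end in _s_at or _x_at, these lay at 0.05, 0.44 and 0.13. ACTA2, smooth muscle actin, lay at 0.40 ± 0.52 (SD, 3 probe sets, 2 placed below 4). It lay at 1.00 both without probe sets placed below 4 and on its probe set of largest absolute difference. Of 10 endothelial markers, 0 reached 2-fold (0.632% of all genes higher, 0.485% lower). Of the 10, 8 lay below 0, where 9402 of all 19775 genes did, and the median was -0.10. With the hybridisation controls set equal, that median was 0.00. STAB2 lay at 0.40 and CDH5, CLEC4G and KDR at -0.24, -0.21 and -0.20. Every probe set of STAB2, CLEC4G and KDR was placed below 4. Of 9 measured leukocyte and macrophage markers, 1 was at least 2-fold lower (0.485% of all genes) and 0 higher (0.632% of all genes). The lower gene was LYZ, the lysozyme gene, at -1.68 ± 0.15 (SD, 2 probe sets), and the list median was 0.00. Of 11 measured hepatocyte markers, 0 reached 2-fold (0.632% of all genes higher, 0.485% lower), and the median was -0.09. The values ran from -0.94 for AHSG, fetuin-A, to 0.59 for FGB, the fibrinogen beta chain, with TF at -0.45 and TTR at 0.40. AHSG reached 2-fold, at -1.03, on its probe set of largest absolute difference. Their part in the NPPB difference was not tested, and their levels are not in the file.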

How the data were processed

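Each of 2 Huh7 cultures gave total RNA for 1 Affymetrix array. The authors deposited log2 values from RMA (background correction, quantile normalisation, probe set summary), per the submitters' processing notes. Software versions and the origin of the centring: not given in the sources used here. Per probe set, the values of both arrays sum to 0 within 1e-06.

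Of 54675 probe sets, 41091 named 1 gene in GEO's platform annotation, 1801 several and 11721 none here, and 62 were controls. Entrez IDs matched 41037 to the GRCh38.p14 gene table, which changed 0 symbols. The log2 difference of a gene (CD24 shRNA minus control) was averaged over its probe sets. The 2-fold limit is a fixed size, not a test. Single-precision numbers take finer binary steps below 4, which placed the dimmer array of 15522 probe sets there and misses others.

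Members and lists were chosen with earlier results of these data known. Named genes were all members and CD24, list genes past 2-fold or else the 4 largest, the 5 genes nearest NPPB and 3 measured neighbours on each side. GATA4, SRF, NKX2-5, HAND2, XIRP1, ACTC1, DES, MYH7, ACTA2, PDE5A, ADM, AGT and ANXA1 were named after their values were seen. So were MME, MEP1B, ECE2, GNAI1, GNAI2, GNAI3, CALCA and CALCRL. Alternatives changed the combination or choice of probe sets, the centring, the scaling (on 9 hybridisation controls) and the limit (1.5-fold, 3-fold). Python 3.11.15, pandas 2.3.3 and numpy 2.4.6 were used, and the scripts were tested on simulated data.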

Additional observations from a re-analysis of the deposited data

How the results depend on the processing

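NPPB, NPPA, NPPC and FURIN have 1 probe set each, so other combinations of probe sets cannot move them, centring adds 0, and scaling on the hybridisation controls adds 0.11 to every gene. Of 41 values of the 7 measured genes under 6 alternatives, 17 therefore differed from the value reported, 10 of them apart from the scaling, and these say little about stability. The sign changed for NPPC, NPR3 and CORIN under that scaling. NPPA has no value without probe sets ending in _s_at or _x_at. List medians moved by at most 0.26 under the same alternatives. CD24 lay at -1.97 with the probe set of largest absolute difference, and has no value without probe sets ending in _s_at or _x_at. Over all genes, 125 were at least 2-fold higher and 96 lower. These counts were 303 higher and 209 lower with the probe set of largest absolute difference, which by construction takes the extreme of several values. At 1.5-fold they were 521 higher and 470 lower, and at 3-fold 32 higher and 17 lower. Scaling on the hybridisation controls gave 180 higher and 69 lower, so that 72.3% of these genes were higher, against 56.6% as reported. No paired analysis was possible because each group holds 1 array, and no replicate could be left out.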
